A study of Mus musculus with 12 samples.

Results

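The genes described here are 10 that ERK signalling is known to regulate and that mostly restrain it: the dual-specificity phosphatase genes Dusp4, Dusp6 and Dusp7, the Sprouty genes Spry1, Spry2 and Spry4, the Sprouty-related genes Spred1 and Spred2, the ETS transcription factor gene Etv5 and the cyclin D1 gene Ccnd1. They were taken by name from the deposited gene table, where 10 of 30199 genes carried these symbols, and all 10 passed the filter on low counts that left 18897 genes to test. The table covers hearts of C57BL/6J mice by bulk RNA sequencing of poly(A) RNA in 12 libraries, 3 in each of 4 groups. The groups were control (ctrl), PLX3397, sorafenib, and sorafenib with PLX3397, collected after 28 days of sorafenib administration with or without the macrophage clearance agent. The labels give no dose, route, sex or age, and do not say what the controls received. They also do not say whether the 3 libraries of a group came from separate animals, so p-values measure only the spread between these libraries, which may be technical.

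Growth factor receptors at the cell surface activate RAS, which recruits RAF kinases; RAF phosphorylates MEK, and MEK phosphorylates ERK. Active ERK enters the nucleus and induces genes whose products feed back on the same cascade: DUSP proteins remove phosphate from ERK, and Sprouty and SPRED proteins hold back RAS and RAF. Etv5 and Ccnd1 belong to the same output, the first as a transcription factor and the second as the cyclin that drives entry into the cell cycle. Sorafenib inhibits RAF kinases and several receptor tyrosine kinases, and PLX3397 inhibits the receptor for colony stimulating factor 1, on which macrophages depend.

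Total estimated counts were between 61626404 and 64537365 a library, and the 10 genes held between 99 and 3460 counts each in a library. Mitochondrial genes took 29.2% to 33.6% of the counts. Trimmed-mean scaling factors were 1.01 to 1.09 in the 6 libraries without sorafenib and 0.933 to 0.995 in the 6 with it, and CPM are counts scaled with them. The deposited FPKM, fragments per kilobase scaled to library size, were lower relative to CPM in the sorafenib libraries, so a group difference in FPKM is not the fold change fitted here. The 10 cardiomyocyte markers were above 0 in every library. Macrophage markers, 12 genes, summed to 256 to 312 CPM in controls and 254 to 279 CPM with PLX3397 alone, ranges that overlapped. Between those groups 0 of the 12 passed the test, as did 0% of all 18897 tested genes. The log2 change was below 0 for 10 of the 12 and above 0 for 2, with a median of -0.16.

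The promoter windows of the 2 phosphatase genes and 1 SPRED gene that passed the test, and the second of the 2 windows of Etv5, are printed because they differ in composition and in short motifs. RefSeq's promoter table (GRCm38.p6, 250 bases before the start and 50 after it) holds 7 of the 10 genes in 8 windows: Dusp6, Dusp7, Spry1, Spry2, Spred1, Spred2 and Etv5. Capitals in the lines below mark TGAATG, a core that the repressor Capicua is known to bind, or GGGCGG, the GC box, on either strand. Both were chosen after the windows had been looked at. Dusp6 lies at chr10:99262981-99263280 on the plus strand, Spred1 at chr2:117120821-117121120 (plus), Dusp7 at chr9:106368382-106368681 (plus) and the Etv5 window at chr16:22438319-22438618 (minus).
Dusp6: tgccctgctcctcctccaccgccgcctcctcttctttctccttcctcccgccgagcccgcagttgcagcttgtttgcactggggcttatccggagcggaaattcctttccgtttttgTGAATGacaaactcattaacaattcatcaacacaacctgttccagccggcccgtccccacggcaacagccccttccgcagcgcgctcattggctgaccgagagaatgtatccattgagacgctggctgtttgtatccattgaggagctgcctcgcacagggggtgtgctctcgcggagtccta
Spred1: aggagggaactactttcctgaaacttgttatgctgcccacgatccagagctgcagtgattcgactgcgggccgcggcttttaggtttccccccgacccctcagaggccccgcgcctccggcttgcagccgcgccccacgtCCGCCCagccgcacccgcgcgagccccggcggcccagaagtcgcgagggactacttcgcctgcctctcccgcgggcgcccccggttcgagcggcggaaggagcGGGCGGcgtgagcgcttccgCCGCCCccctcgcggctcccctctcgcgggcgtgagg
Dusp7: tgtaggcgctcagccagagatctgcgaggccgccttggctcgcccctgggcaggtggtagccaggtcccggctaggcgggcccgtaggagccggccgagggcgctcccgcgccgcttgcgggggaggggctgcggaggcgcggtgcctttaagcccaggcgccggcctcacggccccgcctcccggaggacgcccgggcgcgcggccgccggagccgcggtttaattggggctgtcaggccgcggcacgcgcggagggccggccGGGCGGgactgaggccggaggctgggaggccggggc
Etv5: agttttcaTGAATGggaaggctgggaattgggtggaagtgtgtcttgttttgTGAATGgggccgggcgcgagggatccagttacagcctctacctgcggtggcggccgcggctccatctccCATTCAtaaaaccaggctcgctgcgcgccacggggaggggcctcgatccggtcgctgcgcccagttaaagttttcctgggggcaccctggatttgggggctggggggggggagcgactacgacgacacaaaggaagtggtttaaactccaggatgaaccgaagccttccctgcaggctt

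TGAATG occurred in 12.7% of all 32851 promoters of that table and in 2 of the 8 windows. These were Dusp6 (1 match, at -133 from the start) and the printed window of Etv5 (3 matches, at -242, -198 and -129). GGGCGG occurred in 35.7% of all promoters and in 5 of the 8 windows, with 3 matches in Spred1 at -110, -7 and 14, and 1 in Dusp7 at 15. The ETS sequence CCGGAA was in 14.9% of promoters and in 1 of the 8, Spry2. Shorter or otherwise different ETS sequences were not searched. The longer ETS site CCGGAAGT (3.89% of promoters), the cyclic AMP site TGACGTCA (1.79%) and TATAAA (13.6%) were in 0 of the 8. Also in 0 of the 8 were the AP-1 sites TGACTCA and TGAGTCA (5.2%) and the longer Capicua sites TGAATGAA and TGAATGGA (2.47%). TGACG, the first letters of the cyclic AMP site, was in 20.8% of promoters and in 1 of the 8, Spred2. Each motif was searched on both strands; TGACG lies within TGACGTCA, CCGGAA within CCGGAAGT and TGAATG within the longer Capicua sites. The windows of Dusp7 and Spred1 were rich in G and C, at 78.7% and 72.3%. Dusp6 was at 57.3%, the printed Etv5 window at 60.0% and the median over all promoters at 52.7%. The other Etv5 window, not printed, was at 74.0%, with GGGCGG at -215, -99 and -55 and no TGAATG. The contrast of Etv5 with Dusp7 and Spred1 thus depends on the window chosen. A match describes these letters and not a bound site.

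In control hearts Ccnd1 was highest at 8.84 ± 1.40 FPKM (SD, n = 3), followed by Dusp7 at 8.56 ± 0.507 and Spry1 at 7.53 ± 0.66, and these 3 neighbours in the order overlapped each other in range. Dusp6 came next at 6.19 ± 0.369 FPKM, apart from its neighbours on both sides. Spry2 at 4.48 ± 0.369, Spred1 at 4.21 ± 0.227 and Spred2 at 4.15 ± 0.503 FPKM overlapped in turn. Etv5 at 3.33 ± 0.383, Spry4 at 2.27 ± 0.158 and Dusp4 at 1.15 ± 0.325 FPKM followed without overlap.

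Sorafenib was followed by lower Dusp6, Spry4, Spred1 and Ccnd1 and by higher Dusp7, when the effects of sorafenib without and with PLX3397 were averaged. Spry4 changed by -38.9%, Dusp6 by -35.4%, Ccnd1 by -27.5%, Spred1 by -20.4% and Dusp7 by 19.7%. The other 5 genes, Dusp4, Spry1, Spry2, Spred2 and Etv5, did not pass the test. In this comparison of 6 libraries with sorafenib and 6 without, 4 of the 10 genes were called lower, where 6.32% of all tested genes were, and 1 of 10 was called higher, where 5.62% were. The 10 were chosen with earlier results of these data known, so counts above these shares do not test the set. The median log2 change of the 10 was -0.18, against -0.01 over all tested genes. A gene was called at an adjusted p under 0.05 in edgeR's quasi-likelihood test with Benjamini-Hochberg adjustment over all 18897 genes, which gave 1062 higher and 1195 lower; limma on log2 FPKM gave 343 higher and 2617 lower. In bulk heart RNA, fewer cells of a type and less RNA per cell cannot be told apart.

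**Figure D1:**
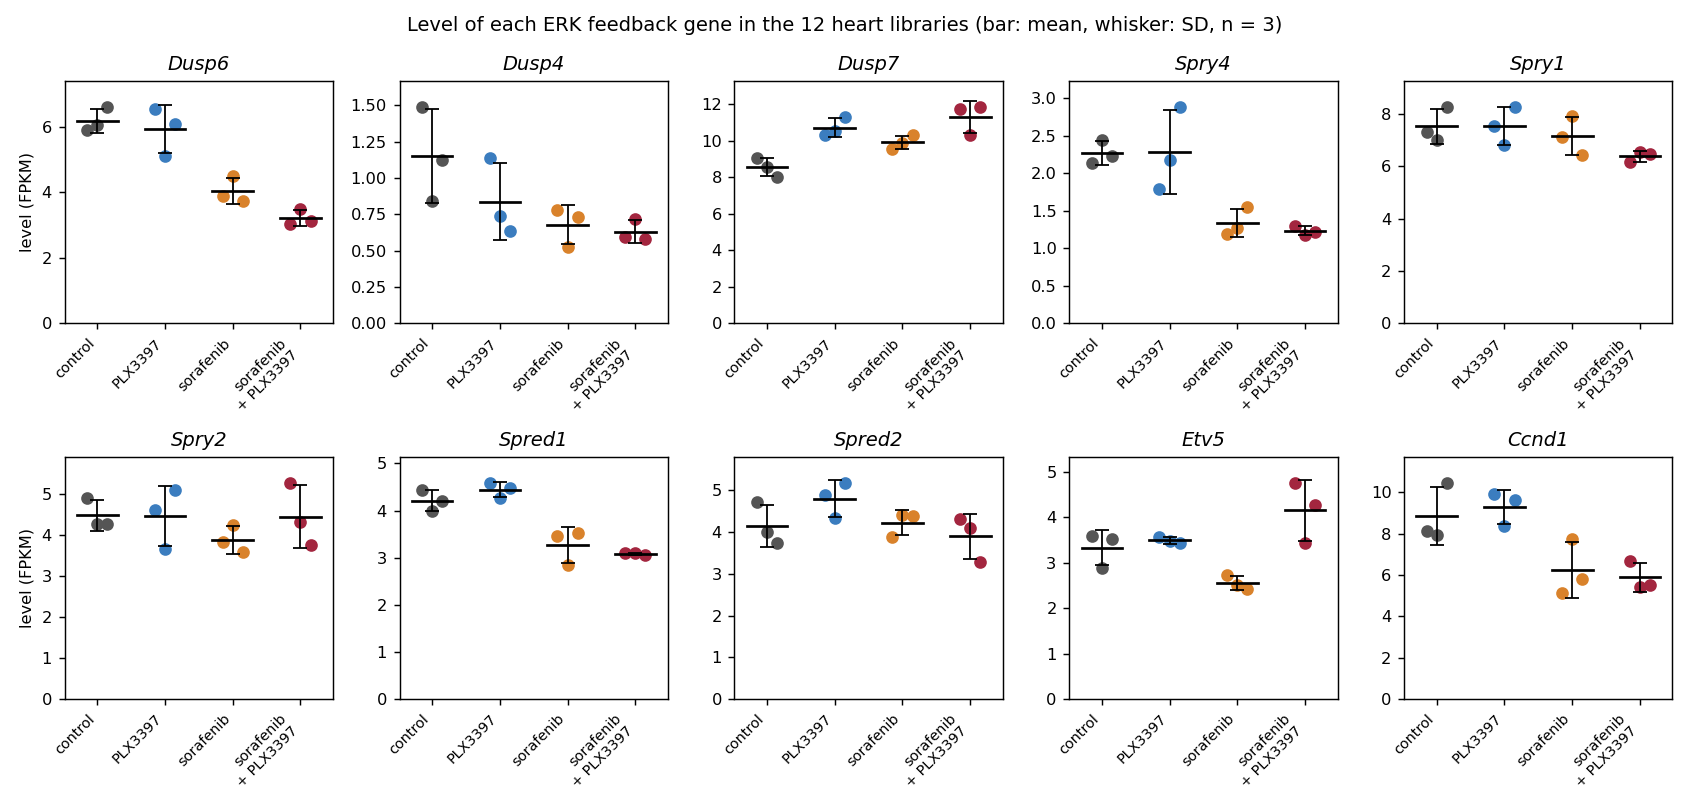
Level of each of the 10 genes in FPKM (vertical axes from 0) in the 12 libraries by group, with points for libraries, bars for group means and whiskers for the SD of 3 libraries. On this scale Dusp6, Spry4, Spred1 and Ccnd1 sit lower in all 6 libraries with sorafenib than in all 6 without. By group mean, Etv5 is lowest with sorafenib alone and highest with both agents.

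Dusp6 (chr10:99263231-99267489, plus strand, mm10 as in all gene positions here) encodes the cytoplasmic phosphatase that acts mainly on ERK and is among its most used transcriptional readouts. Its level was 5.91, 6.05 and 6.60 FPKM in controls, 6.55, 5.11 and 6.09 with PLX3397, 3.88, 4.49 and 3.72 with sorafenib alone; the both-agent libraries read 3.03, 3.49 and 3.13 FPKM. All 6 sorafenib libraries lay below all 6 others, and the both-agent libraries also lay below those with sorafenib alone. For separations of 3 libraries from 3, here and below, the share over all tested genes is not given, so they only describe the values. The average sorafenib effect was a log2 fold change of -0.63 ± 0.086 (SE; 95% interval -0.81 to -0.45; adjusted p = 0.000571, edgeR). It was -0.49 without PLX3397 (adjusted p = 0.0465) and -0.77 with it (adjusted p = 0.00433), and the difference between them, -0.27 (95% interval -0.64 to 0.09), did not pass the test. Without PLX3397 the call was lost when any of 4 libraries was left out: control 2 (adjusted p = 0.125), control 3 (0.193), sorafenib 1 (0.152) and sorafenib 3 (0.13); it was also lost with only the groups compared (0.0668). On the PLX3397 background Dusp6 was called in every alternative run.

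Dusp7 (chr9:106368632-106375724, plus) encodes another cytoplasmic ERK phosphatase, and it was the 1 gene of the 10 that rose. Its level was 9.05, 8.59 and 8.04 FPKM in controls, 10.34, 10.51 and 11.32 with PLX3397, 9.57, 9.87 and 10.30 with sorafenib alone; the both-agent libraries read 11.76, 10.30 and 11.85 FPKM. The 3 controls were below the other 9 libraries on both scales. In FPKM sorafenib alone lay below PLX3397 and the both-agent libraries overlapped PLX3397; in CPM sorafenib alone (36.0 to 38.7) overlapped PLX3397 (36.1 to 40.1) and the both-agent libraries (40.42 to 44.95) lay above it. The average sorafenib effect on Dusp7 was 0.26 ± 0.055 on the log2 scale (adjusted p = 0.00871, edgeR), and limma on log2 FPKM gave 0.14 (adjusted p = 0.114). Against control it rose by 26.1% (adjusted p = 0.0383), a call lost in 5 of the 6 fits that left out a library: control 2 (0.0981), control 3 (0.168), sorafenib 1 (0.102), sorafenib 2 (0.101) and sorafenib 3 (0.0641). It was also lost with limma on log2 FPKM (0.133), no filter (0.0515) and only the groups compared (0.0715). On the PLX3397 background the log2 difference was 0.18 (adjusted p = 0.256).

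Dusp4 (chr8:34807297-34819894, plus) encodes a nuclear phosphatase of the same family and had the lowest level of the 10. It stood at 1.49, 0.84 and 1.13 FPKM in controls, 1.14, 0.74 and 0.64 with PLX3397, 0.78, 0.53 and 0.73 with sorafenib alone; the both-agent libraries read 0.59, 0.72 and 0.58 FPKM. The sorafenib libraries lay below the controls, but the PLX3397 libraries spanned both. Its average log2 effect, -0.46 ± 0.189 (95% interval -0.87 to -0.06), was as large as that of Ccnd1 with a wider error, and did not pass (adjusted p = 0.127, edgeR).

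Of the Sprouty genes, whose products act at the membrane on receptor and RAF signalling, Spry4 fell and Spry1 and Spry2 did not pass the test. Spry4 (chr18:38586247-38601415, minus) was 2.13, 2.44 and 2.23 FPKM in controls, 1.79, 2.18 and 2.89 with PLX3397, 1.19, 1.27 and 1.55 with sorafenib alone; the both-agent libraries read 1.30, 1.18 and 1.22 FPKM. Every sorafenib library lay below every library without it. The average effect was -0.71 ± 0.116 on the log2 scale (95% interval -0.96 to -0.46; adjusted p = 0.00182, edgeR). Against control the change was -0.64, just short of the threshold (adjusted p = 0.0525), and it passed without control 1 (0.0374), by DESeq2's Wald test (0.0111), by limma on log2 FPKM (0.0359), with counts divided by 4 (0.0439), with no filter (0.0487) or a stricter one (0.0428) and with only the groups compared (0.0456). On the PLX3397 background it was -0.78 (adjusted p = 0.0204), a call lost without PLX3397 replicate 2 (0.0517), PLX3397 replicate 3 (0.0915), or any of the 3 both-agent libraries (0.0607 to 0.0693).

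Spry1 and Spry2 overlapped between groups in every comparison by CPM, but not by FPKM. In FPKM the both-agent Spry1 libraries, up to 6.54, lay below PLX3397, from 6.81, and control, from 7.01. Spry2 with sorafenib alone, up to 4.251 FPKM, lay just below control, from 4.261 FPKM. Spry1 (chr3:37639947-37644598, plus) ranged from 6.16 to 8.27 FPKM over the 12 libraries, and its average log2 sorafenib effect was -0.04 (95% interval -0.20 to 0.13). Spry2 (chr14:105891947-105896819, minus) ranged from 3.58 to 5.27 FPKM, with an effect of 0.02 (95% interval -0.21 to 0.25), and with limma on log2 FPKM its sign turned to -0.09. Neither interval reached the estimate for Spry4.

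SPRED proteins bind the RAS inhibitor neurofibromin and bring it to the membrane. Spred1 (chr2:117121374-117182279, plus) was 4.44, 3.99 and 4.20 FPKM in controls, 4.59, 4.26 and 4.48 with PLX3397, 3.47, 2.84 and 3.52 with sorafenib alone; the both-agent libraries read 3.10, 3.09 and 3.06 FPKM. Its 6 sorafenib libraries also lay below all others. The average effect was -0.33 ± 0.058 on the log2 scale (95% interval -0.45 to -0.20; adjusted p = 0.00323, edgeR). On the PLX3397 background it fell by 25.0% (adjusted p = 0.0146), and against control the log2 change was -0.24 (adjusted p = 0.116). The call on the PLX3397 background was lost without PLX3397 replicate 1 (0.0598), PLX3397 replicate 3 (0.0508), both-agent replicate 1 (0.0627) or both-agent replicate 3 (0.0527). Spred2 (chr11:19924375-20024026, plus), from 3.29 to 5.18 FPKM over the libraries, had an average effect of -0.02 (95% interval -0.20 to 0.16), and in CPM its groups overlapped in every comparison; in FPKM the both-agent libraries, up to 4.30, lay below the PLX3397 libraries, from 4.32.

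Ccnd1 (chr7:144929931-144939925, minus) was 8.14, 7.92 and 10.46 FPKM in controls, 9.92, 8.36 and 9.61 with PLX3397, 5.14, 7.74 and 5.81 with sorafenib alone; the both-agent libraries read 6.68, 5.44 and 5.52 FPKM. In FPKM all 6 sorafenib libraries lay below the others, but in CPM the groups overlapped: sorafenib replicate 2, at 42.5 CPM, lay above 2 controls, at 38.3 and 39.7 CPM. The average log2 effect was -0.46 ± 0.111 (95% interval -0.70 to -0.22; adjusted p = 0.0174, edgeR). Without PLX3397 replicate 1 it was -0.43 (adjusted p = 0.0583) and without sorafenib replicate 3 it was -0.41 (adjusted p = 0.0513). In the separate comparisons Ccnd1 did not pass, at -0.38 against control (adjusted p = 0.187) and -0.55 on the PLX3397 background (0.081), where DESeq2's Wald test (0.0187), limma on log2 FPKM (0.0389) and a fit of only the groups compared (0.0238) called it. An opposite-strand gene, LTO1, overlaps Ccnd1 over 818 bases with a mean of 2.06 FPKM, and whether the counting used strand is not given.

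**Figure D2:**
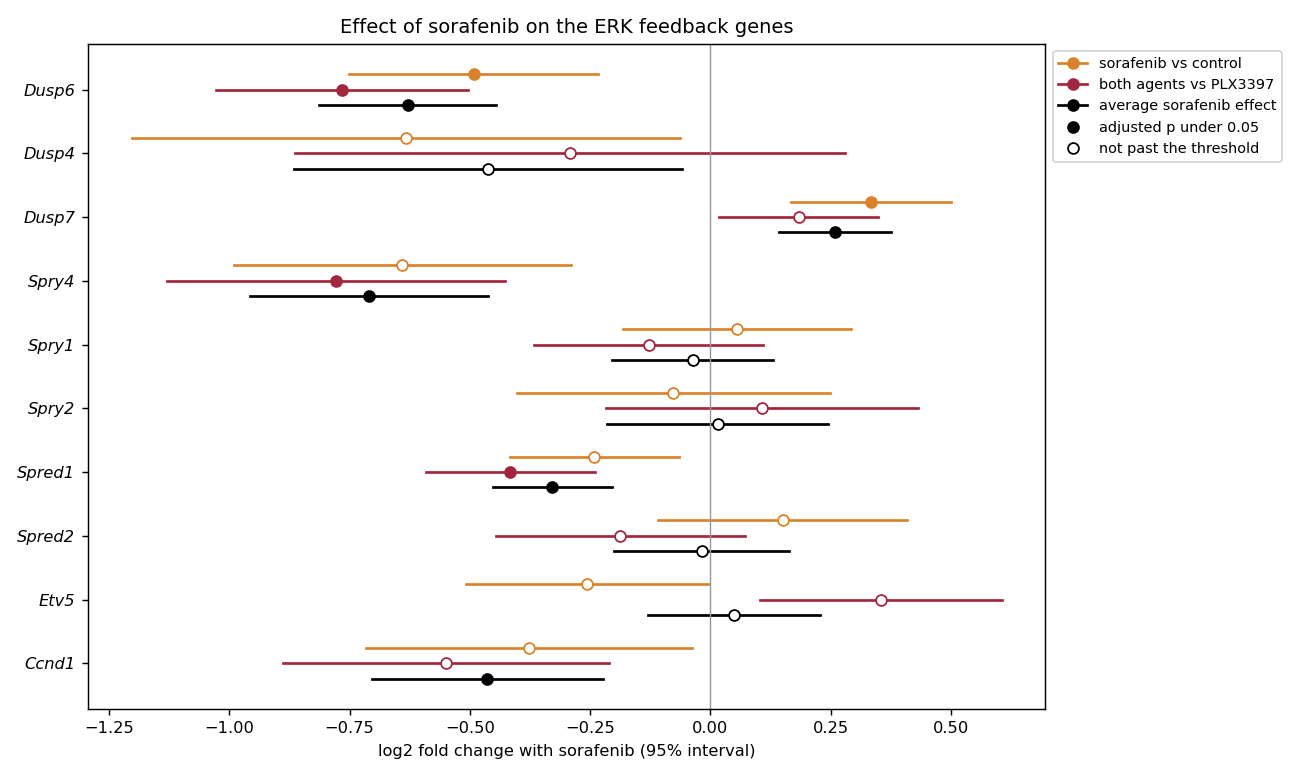
Log2 fold change with sorafenib (horizontal axis) for each of the 10 genes against control, on the PLX3397 background and on average, with lines for 95% intervals and filled points for an adjusted p under 0.05. Dusp6, Dusp4, Spry4, Spred1 and Ccnd1 lie left of 0 in all 3 and Dusp7 right of it; Etv5, Spry1, Spry2 and Spred2 lie on opposite sides of 0 without and with PLX3397.

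Dusp6, Spry4 and Spred1 were the 3 of 10 genes whose 6 sorafenib libraries all lay below the 6 others in CPM, a pattern shown by 2.42% of all tested genes. Taken apart, sorafenib against control gave 1 of 10 genes lower (Dusp6) and 1 higher (Dusp7), where 1.14% and 1.5% of all genes were called, and a median of -0.25 against -0.02 over all genes. Over all genes that was 284 higher and 216 lower, against 96 higher and 758 lower with limma on log2 FPKM. Both agents against PLX3397 gave 3 of 10 lower (Dusp6, Spry4 and Spred1) and 0 higher, where 2.23% of all genes were called lower (190 higher and 421 lower, against 74 and 545 with limma). The average effect is the mean of these 2 comparisons, so its calls are not separate evidence.

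**Figure D3:**
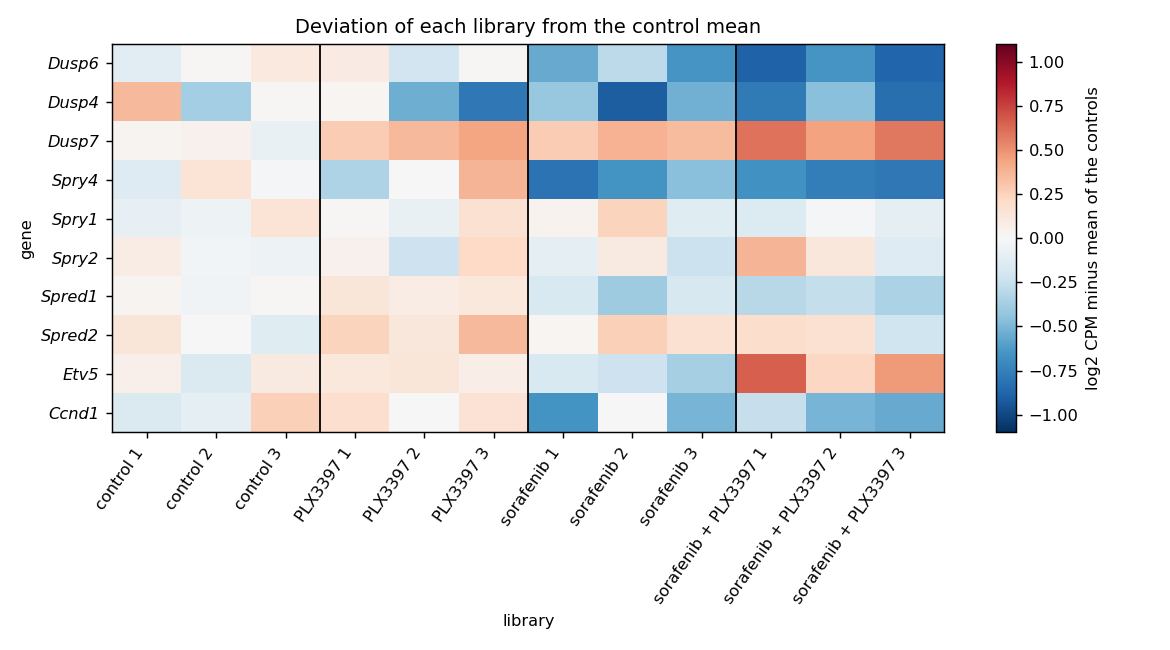
Log2 CPM of each gene (vertical) in each of the 12 libraries (horizontal) minus the mean of the 3 controls, blue for lower and red for higher. Dusp6, Dusp4, Spry4, Spred1 and Ccnd1 are below the control mean in all 6 sorafenib libraries, Ccnd1 by only 0.008 in sorafenib replicate 2, and the row of Etv5 turns from blue with sorafenib alone to red with both agents.

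Etv5 (chr16:22381309-22439719, minus) encodes an ETS factor that FGF and ERK signalling are known to induce, and it did not pass the test in any comparison. Its level was 3.58, 2.89 and 3.52 FPKM in controls, 3.57, 3.49 and 3.42 with PLX3397, 2.73, 2.51 and 2.42 with sorafenib alone; the both-agent libraries read 4.76, 3.43 and 4.26 FPKM. In CPM all 3 sorafenib libraries (10.9 to 12.5) lay below all controls (12.6 to 15.1), and all 3 both-agent libraries (16.4 to 22.2) lay above all PLX3397 libraries (14.8 to 15.5). The log2 change was -0.26 ± 0.118 against control (adjusted p = 0.225, edgeR) and 0.35 ± 0.118 on the PLX3397 background (adjusted p = 0.132). The difference between these effects, 0.61 ± 0.167, had an unadjusted p of 0.00242 and an adjusted p of 0.822. Both agents against sorafenib gave 0.71 ± 0.119 (unadjusted p = 2.68e-05, adjusted p = 0.169 by edgeR), and DESeq2's Wald test called it (0.72, adjusted p = 0.00029).

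None of the 10 genes passed edgeR's test for PLX3397, alone or on top of sorafenib. Against control 0 of 10 genes were called, as were 0% of all 18897, with 2325 genes at an unadjusted p under 0.05; DESeq2's Wald test called 100 genes and limma on FPKM 2, and edgeR called 578 without PLX3397 replicate 1. Dusp7 had the smallest p of the 10 there, at 0.36 ± 0.078 on the log2 scale (unadjusted p = 0.000385, adjusted p = 0.361), with all 3 PLX3397 libraries above the controls. The Wald test called it (adjusted p = 0.0153), and so did edgeR without PLX3397 replicate 1 (0.0301). That comparison shares its controls with sorafenib against control. Atrial markers, 8 genes, summed to 770 to 1558 CPM in controls and 345 to 535 CPM with PLX3397; their part in the values was not tested.

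Adding PLX3397 to sorafenib also gave 0 of 10 calls and 0% of all genes by edgeR, with 1216 genes at an unadjusted p under 0.05, 65 calls by the Wald test and 0 by limma. Dusp6 was -0.31 (95% interval -0.57 to -0.05; adjusted p = 0.72), and its libraries did not overlap those with sorafenib alone. The interaction gave 0 of 10 calls and 0% of all genes, with 1099 genes at an unadjusted p under 0.05, 5 calls by the Wald test and 0 by limma. After Etv5, the interaction estimates furthest from 0 were Dusp4 at 0.34 (95% interval -0.46 to 1.15) and Spred2 at -0.34 (95% interval -0.70 to 0.03).

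Among the other genes of the pathway, 5 of 25 of the cascade and 9 of 15 of cell division passed the test in the average effect, where 11.9% of all tested genes did. A count of 5 of 25 does not set the cascade apart from all genes. The lists, too, were chosen with earlier results of these data known, so their counts are not tests of the lists. Of the 25 tested genes of the RAF-MEK-ERK cascade, 2 rose and 3 fell in the average effect, with a median log2 change of -0.01. The adaptor Gab1 rose by 0.34 (adjusted p = 0.00411, edgeR) and the phosphatase Ptpn11 by 0.27 (0.0316). The ERK-activated kinases Rps6ka1 and Rps6ka2 were at -0.51 (0.0185) and -0.27 (0.0283), and Hras was at -0.31 (0.0424). Among the kinases of the cascade that did not pass the test were Araf at 0.11, Braf at 0.19, Map2k1 at -0.08, Map2k2 at -0.05 and Mapk3 at -0.10, all as log2 changes.

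Of 19 other ERK-induced and ETS genes tested, 1 rose and 2 fell, with a median of -0.22. In the average effect 5.62% of all tested genes were called higher and 6.32% lower. Counts this small do not set this list, or the phosphatase and growth factor lists below, apart from all genes. The ETS factor Elk1, an ERK substrate, was at -0.63 (adjusted p = 0.00689, edgeR) and the nuclear ERK phosphatase Dusp5 at -0.52 (0.0394). Il17rd, which encodes the feedback inhibitor SEF, rose by 0.44 (0.0354). Ets1 was at -0.25 and passed on the PLX3397 background (adjusted p = 0.0395). The induced genes Egr1 (-0.90, adjusted p = 0.073 by edgeR), Etv4 (-1.36, 0.0822) and Myc (-0.44, 0.0726) did not pass. They had larger or like estimates with wider errors, and were named for contrast rather than by the rule for called genes. In the whole list 13 of the 19 genes were below 0 and 6 above it. Of the 7 other dual-specificity phosphatase genes 1, Dusp5, fell, with a median of -0.26.

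Of 16 growth factor receptors and ligands, 2 rose and 1 fell, with a median of 0.08. Of all tested genes, 5.62% were called higher and 6.32% lower. Igf1r, the receptor for insulin-like growth factor 1, rose from 0.681 to 0.857 FPKM between the control and sorafenib means and by 0.58 on the log2 scale in the average effect (adjusted p = 0.000824, edgeR). Its ligand Igf1 was at -0.45 (0.0211), and Fgf1 rose by 0.24 (0.0236). Of 15 partners of cyclin D and genes of cell division, 0 rose and 9 fell, with a median of -0.29. By log2 change these were Top2a -1.58, Ccna2 -1.53, Ccnb1 -1.47, Mki67 -1.20, Mcm5 -0.93 and Cdkn1a -0.90, and also, named after their values were seen, Pcna -0.29, the cyclin D1 kinase Cdk4 -0.26 and the cyclin D3 gene Ccnd3 -0.25. Cdkn1a encodes an inhibitor of cyclin-dependent kinases, so the genes of this list that fell do not all drive division. The cyclin D2 gene Ccnd2 was at 0.31 (adjusted p = 0.0711).

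**Figure D4:**
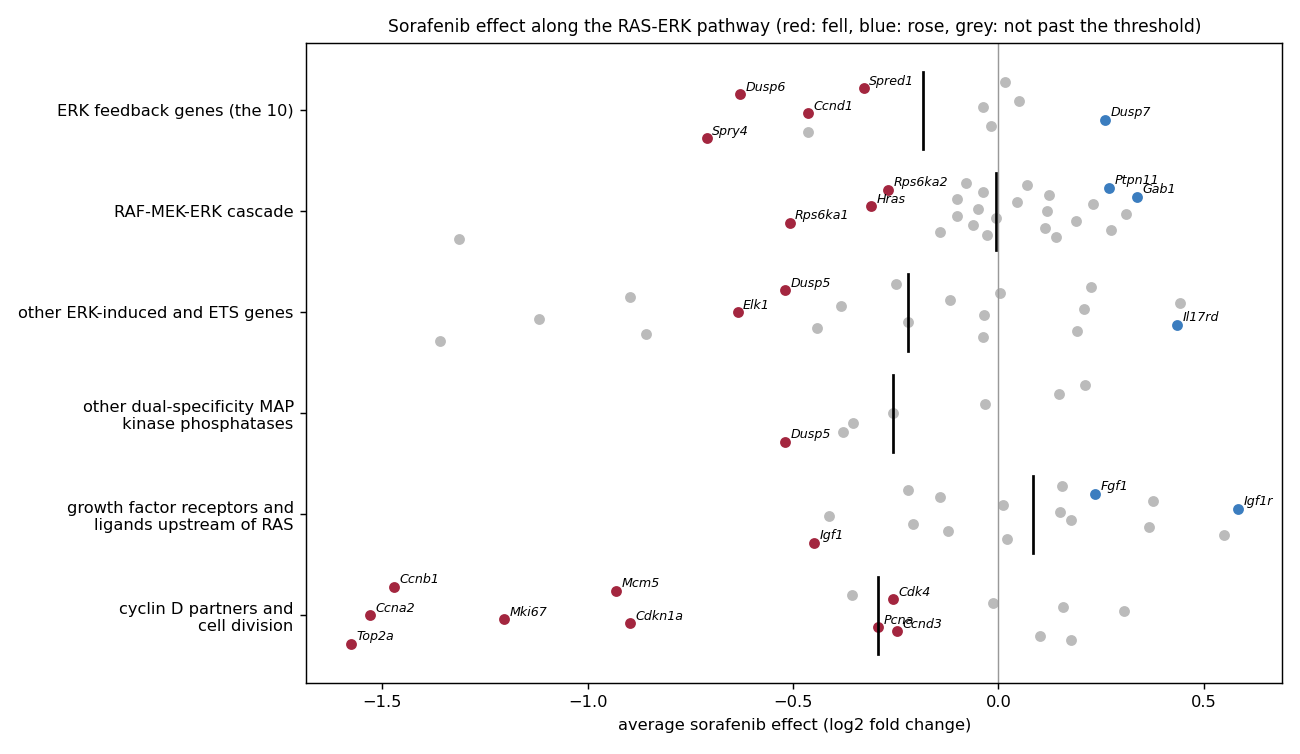
Average sorafenib effect (horizontal axis, log2 fold change) for the 10 ERK feedback genes and the 5 lists of other pathway genes, a point a gene, coloured red where it fell, blue where it rose and grey where it did not pass the test, with a bar at each list's median. The cascade centres at -0.01 and the cell division list at -0.29; Dusp5 appears in 2 lists.

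Markers of other cells moved with the same contrast, in which 5.62% of all tested genes were called higher and 6.32% lower. All 12 macrophage markers were called lower in the average effect, with a median of -1.38; their sum was 113 to 186 CPM with sorafenib and 80.5 to 105 CPM with both agents, against 254 to 312 CPM without sorafenib, and none was at 0. Of 10 cardiomyocyte markers 6 were called higher, with a median of 0.27 and sums of 40260 to 48360 CPM without sorafenib and 48380 to 59510 CPM with it. Of 10 endothelial markers 4 were called lower, with a median of -0.21 and sums of 729 to 893 CPM without and 639 to 735 CPM with sorafenib. Erythroid markers were called higher for 4 of 6, with a median of 0.65; of the fibroblast markers 1 was called lower, and of the mural markers 2 were called higher and 2 lower. Lymphocyte, adipocyte and atrial markers gave 0 calls in that contrast, though the atrial sum ranged from 315 to 2598 CPM, both ends in hearts with sorafenib. The part of these shifts in the values of Dusp6, Spry4, Spred1, Ccnd1 and Dusp7 was not tested.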

How the data were processed

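Poly(A) RNA from Trizol extracts of heart was sequenced in 12 libraries from dUTP-labelled cDNA, per the labels' protocols. The authors deposited estimated counts and FPKM per gene, on mm10 and with DESeq2 and edgeR named, per the submitters' processing notes; the sources used here do not name the aligner, the counter, its use of strand or the software versions. The estimated counts are whole numbers, rounded where needed, and pile up at multiples of 4 (12143 values equal 4, against 5303 at 3 and 3364 at 5), so a count may not be an independent fragment. The FPKM deposited by the authors were used for levels.

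Counts of all 12 libraries were fitted together in edgeR 4.0.16 (R 4.3.3; TMM scaling, filterByExpr with a minimum count of 10 and total of 15, robust quasi-likelihood test, group as the only term), with Benjamini-Hochberg adjustment over 18897 genes. CPM use the same scaling. DESeq2 1.42.0 and limma 3.58.1 on log2(FPKM + 0.5) were alternatives, besides other filters, a division of the counts by 4, only the groups compared, a replicate block and each library left out. No pairing by replicate number was seen. Same-numbered deviations correlated at -0.075 to 0.061, and differently numbered ones of other groups at -0.106 to 0.101. Such correlations cannot show that libraries were not paired. The test was tried on simulated counts for the average effect over 18897 genes. It called 74.6% of 67 genes changed 1.5-fold, 95.5% of 67 changed 2-fold and 100% of 66 changed 4-fold, with 7 false calls. The changed genes came only from those above a floor in mean FPKM that Dusp4 did not reach. Simulated counts were independent draws, without the pile-up at multiples of 4. The average changes of Ccnd1, Spred1 and Dusp7, and of the members not called, were smaller than the folds tried. These rates therefore do not describe them.

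The 10 genes, the pathway lists and the marker lists were chosen with earlier results of these data known. All 10 are named whatever their result; of each pathway list, genes called in a sorafenib comparison are named, up to 6 by smallest p, and others as members of the cascade or for contrast. Intervals cover the spread between these libraries.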

Additional observations from a re-analysis of the deposited data

Results flagged for a closer look

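Etv5 lay on opposite sides of its comparison group with sorafenib without and with PLX3397, which is why it is given here. In CPM all 3 sorafenib libraries lay below all 3 controls, and all 3 both-agent libraries lay above all 3 PLX3397 libraries. In FPKM the both-agent libraries, from 3.43, overlapped the PLX3397 libraries, up to 3.57. The test of the difference between the sorafenib effects without and with PLX3397 gave 0.61 on the log2 scale (95% interval 0.25 to 0.97). It did not pass across all genes (unadjusted p = 0.00242, adjusted p = 0.822, edgeR's quasi-likelihood test). The share of all tested genes whose libraries separate as those of Etv5 did is not given here.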

How the results depend on the processing

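In the average sorafenib effect, Dusp6, Spry4 and Spred1 were called under every alternative run, while Ccnd1 was lost without PLX3397 replicate 1 or sorafenib replicate 3 and Dusp7 with limma on FPKM. The called genes in that effect, 2257, ranged from 1394 to 2583 with a library left out. Sorafenib against control called 500 genes and 2 of the 10: DESeq2's Wald test gave 1739 genes, division of the counts by 4 gave 912, limma on FPKM 854, the stricter filter 772 and leaving out a library 27 to 1422; fitting only the groups compared called 1 of the 10, Spry4 (adjusted p = 0.0456) and neither Dusp6 (0.0668) nor Dusp7 (0.0715), and leaving out a library called 0 to 3. With the replicate block it gave 221 genes and 0 of the 10 (Dusp6 -0.50, adjusted p = 0.0743; Dusp7 0.33, adjusted p = 0.0701); the block changed no other call of the 10. Both agents against PLX3397 called 611 genes and 3 of the 10: the Wald test gave 1207 genes, and leaving out a library 177 to 391 genes and 1 to 2 of the 10. PLX3397 against control called 0: the Wald test gave 100 genes and 1 of the 10, limma on FPKM 2, only the groups compared 1, and leaving out a library 0 to 578 genes and 0 to 1 of the 10. Both agents against sorafenib called 0: the Wald test gave 65 genes and 1 of the 10, and leaving out a library 0 to 2 genes. The interaction called 0: the Wald test gave 5 genes and leaving out a library 0 to 2.

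Of 940 values of the 10 genes under alternatives, 865 changed neither call nor direction, though most belonged to results with no call to lose. A call was lost in 27 values and gained in 13. The 35 that changed sign were all uncalled. With limma on FPKM these were -0.057 for Etv5 and -0.094 for Spry2 in the average effect, -0.068 for Spry1 against control, -0.013 for Spry2 and -0.010 for Spry4 under PLX3397 alone, and -0.0053 for Spry2 on the PLX3397 background; with counts divided by 4, Spred2 on average was 0.0029. With a library left out, the average effect ranged from -0.0055 to 0.10 for Etv5, -0.055 to 0.043 for Spred2, -0.092 to 0.024 for Spry1 and -0.054 to 0.087 for Spry2. Against control, sorafenib ranged from -0.051 to 0.16 for Spry1 and -0.17 to 0.016 for Spry2, and PLX3397 from -0.092 to 0.047 for Dusp6, -0.039 to 0.11 for Spry1, -0.083 to 0.14 for Spry2 and -0.16 to 0.21 for Spry4. Both agents against sorafenib ranged from -0.20 to 0.14 for Ccnd1, -0.22 to 0.023 for Dusp4 and -0.17 to 0.026 for Spred2, both agents against PLX3397 from -0.031 to 0.24 for Spry2, and the interaction from -0.32 to 0.041 for Ccnd1 and -0.30 to 0.069 for Spry4. The cause of these changes was not tested. Dusp4, at 99 to 285 counts a library, had the widest error of the 10 in the average effect.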
